A study of Mus musculus with 2 samples.

Results

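The 9 genes described here encode transcription factors and chromatin readers that maintain hematopoietic stem cells (HSC), the rare marrow cells from which all blood lineages arise. They are Hlf, Mecom, Mllt3, Prdm16, Meis1, Gata2, Runx1, Tal1 and Lmo2. Probe sets were taken as theirs where the platform annotation named 1 of these genes and no other, by symbol or synonym. This gave 25 of the 45037 probe sets of the value table, for 9 of 18193 named genes, and 0 further probe sets named one of the genes together with another gene. The data came from 1 Affymetrix 3' expression array of HSC labelled Sirt6 knockout and 1 array of HSC labelled wild type, from mice whose age is given as 3 months in both cases. Sirt6 is a nuclear NAD-dependent deacylase of histones. The labels do not state how the allele was disrupted, how the cells were sorted or whether animals were pooled. Each genotype had 1 array, so no test, SD or p-value between genotypes was possible, and every difference compares these 2 RNA samples.

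The 9 genes act in groups that are well described in blood. Gata2, Runx1, Tal1 and Lmo2 belong with Lyl1, Erg and Fli1 to a set of factors that bind the same enhancers in stem and progenitor cells, with Lmo2 bridging Tal1 and Gata proteins. Mecom and Prdm16 are related zinc finger proteins of the PRDM family, Hlf is a basic leucine zipper factor, and Meis1 is a homeodomain partner of Hox and Pbx proteins. Mllt3, also called AF9, reads acylated histone lysines through its YEATS domain and recruits the super elongation complex and Dot1l. Loss of several of them, such as Hlf, Mecom, Prdm16 or Meis1, depletes or disturbs HSC in mice.

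The targeted gene did not check the genotype label. The single Sirt6 probe set read 174 on the array labelled knockout and 124 in wild type, a log2 ratio of 0.49, and the part of the transcript it covers relative to the disrupted part is unknown here. Every direction below therefore rests on the label. Values are MAS5 signals, linear intensities that were on a common scale as deposited, with array medians of 60.7 (labelled knockout) and 60.8 (wild type). A floor was set at a signal of 60.5, the median over all probe sets. A probe set counted as measured when above it on at least 1 array, and values under it were raised to it. Of the 25 probe sets, 21 passed the floor on both arrays, 1 on the wild-type array only and 3 on neither. A difference of at least 1.5-fold (0.58 on the log2 scale) was counted as lower or higher.

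The array labelled knockout gave lower signals for Hlf, Mllt3, Mecom and most probe sets of Prdm16, mixed signals for Meis1 and Runx1, and near-equal signals for Gata2, Tal1 and Lmo2. Taking the brightest probe set for each gene, 5 of 9 genes were at least 1.5-fold lower (Hlf, Mecom, Mllt3, Prdm16 and Runx1), 0 were higher and 4 lay between. Of all 11547 measured genes, 2.63% were lower and 1.71% higher by this size. The median log2 ratio of the 9 genes was -0.63, against 0.0023 for all measured genes. By probe set, 11 of the 22 measured ones were lower and 0 higher, against 3.55% and 1.6% of the 19881 measured probe sets with 1 gene name. The genes had been chosen with results of these arrays known, so the counts describe them and give no independent support. In such bulk samples, fewer cells that express a gene and less of its RNA per cell cannot be told apart.

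**Figure D1:**
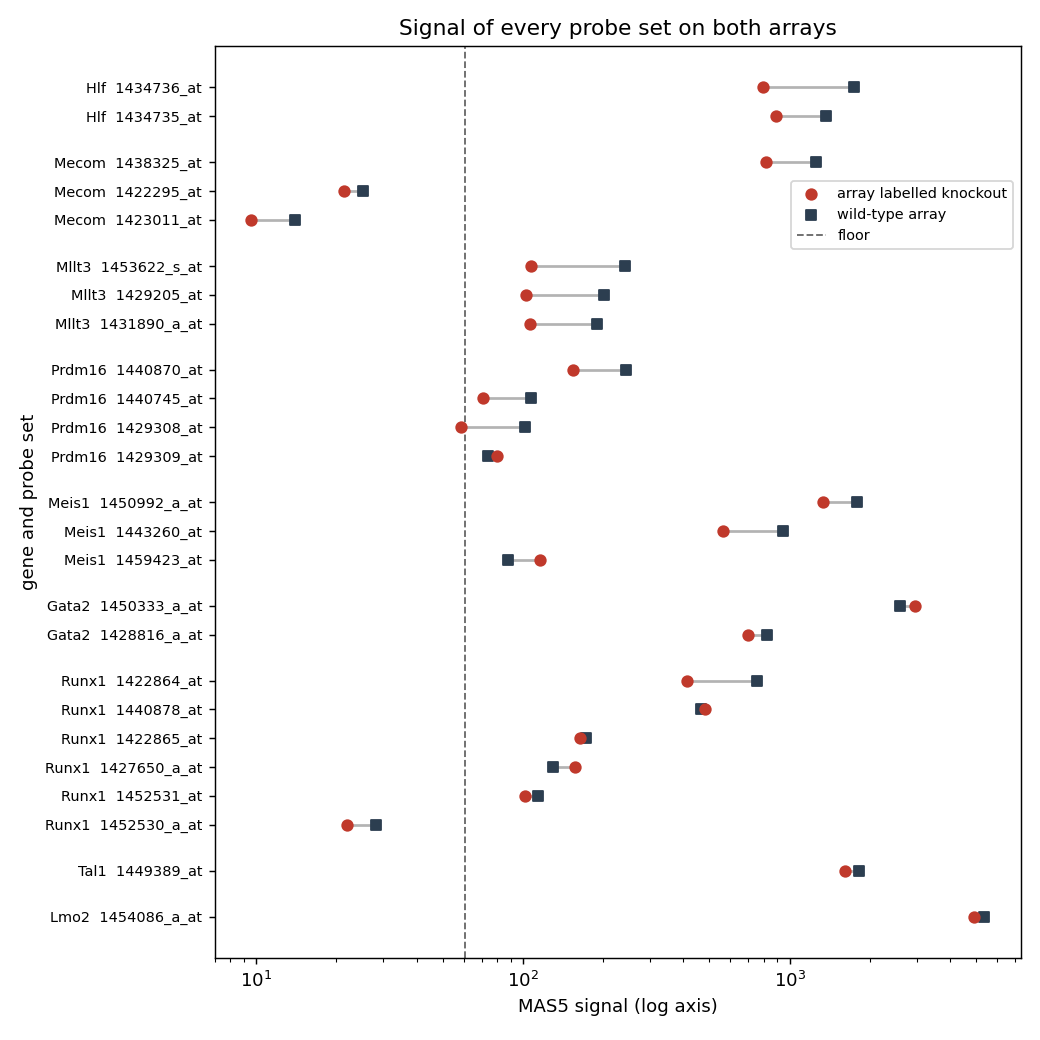
MAS5 signal (horizontal log axis) of all 25 probe sets of the 9 genes, 1 row each, on the array labelled knockout (red circles) and the wild-type array (dark squares), with the floor at 60.5 as a dashed line. The 3 probe sets of Mllt3 and both of Hlf read lower on the array labelled knockout, while the probe sets of Runx1 and Meis1 differ among themselves.

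Hlf, a stem cell transcription factor of the PAR basic leucine zipper family, was lower on both of its probe sets. Probe set 1434736_at read 795 on the array labelled knockout and 1742 in wild type, a log2 ratio of -1.13. The second, 1434735_at, read 888 on the array labelled knockout and 1370 in wild type, a log2 ratio of -0.63. Both probe sets were bright on both arrays, so neither ratio rests on values near the floor. Among measured genes Hlf ranked 41 from the lowest of 11547 by 1434736_at alone. That probe set was only slightly the brighter one, with a mean log2 signal of 10.20 against 10.11 for 1434735_at. Of the 2137 probe sets within 0.5 log2 units of the brighter one in mean signal, 0.234% had a ratio as low or lower. For 1434735_at the share was 1.06% of 2268.

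Mllt3 was the gene whose probe sets agreed best. Probe set 1453622_s_at read 108 on the array labelled knockout and 242 in wild type (log2 -1.17). Probe set 1429205_at read 103 on the array labelled knockout and 201 in wild type (log2 -0.97), and 1431890_a_at read 106 on the array labelled knockout and 190 in wild type (log2 -0.84). All 3 were thus at least 1.5-fold lower, and the gene ranked 37 from the lowest by 1453622_s_at alone. The signals lie nearer the floor than those of Hlf. Of the 4312 probe sets as bright as the first, 0.742% had a ratio as low, and of the 4381 as bright as the last, 2.56% did. Hlf and Mllt3 were the only ones of the 9 genes at least 2-fold lower on the brightest probe set, against 0.572% of all measured genes. The other probe sets of both genes were short of 2-fold. Without _x_at and _s_at probe sets the ratio of Mllt3 was -0.97, also short of 2-fold.

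The windows around the annotated transcription starts of these lead genes are shown because they are the genes with the largest differences. Windows are from RefSeq on GRCm38.p6 and run from 250 bases before to 50 bases after the start, in the direction of transcription. Positions count from the start, with negative ones before it. RefSeq windows were at hand for Hlf, Mecom, Mllt3, Prdm16, Meis1, Gata2, Runx1 and Tal1, and there were 13 in all because some genes have a further start. Capitals mark letters searched on both strands: for GATA factors AGATAA and the forms with G as the last letter or T as the first or both, for the E-box CANNTG, which Tal1 dimers bind among many factors, and for Runx factors TGNGGT. The Hlf window is chr11:90390868-90391167 on the minus strand and the Mllt3 window, at the upstream start, is chr4:88033358-88033657 on the minus strand.
Hlf: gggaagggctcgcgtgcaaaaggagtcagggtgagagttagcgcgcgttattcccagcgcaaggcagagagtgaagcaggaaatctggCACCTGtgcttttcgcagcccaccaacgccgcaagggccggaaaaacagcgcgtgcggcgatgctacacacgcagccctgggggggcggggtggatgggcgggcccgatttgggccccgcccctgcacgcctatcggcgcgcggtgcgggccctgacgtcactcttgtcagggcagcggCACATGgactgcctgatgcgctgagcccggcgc
Mllt3: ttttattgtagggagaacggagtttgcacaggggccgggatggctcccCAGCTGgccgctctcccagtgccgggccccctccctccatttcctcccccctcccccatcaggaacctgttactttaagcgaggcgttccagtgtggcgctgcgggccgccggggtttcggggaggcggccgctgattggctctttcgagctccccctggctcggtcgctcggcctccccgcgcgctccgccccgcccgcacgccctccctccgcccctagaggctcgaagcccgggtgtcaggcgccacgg
The Hlf window held 2 E-boxes, at -162 to -157 and at 18 to 23, and the Mllt3 window 1, at -202 to -197. Neither of these windows held the GATA or Runx letters. The window of the second Mllt3 start, not shown, held GATA letters at -160 to -155 and 3 E-boxes. The start that each Mllt3 probe set follows is unknown here. E-box letters occurred in 72.3% of all 32851 windows of this length, GATA letters in 29.8% and Runx letters in 45.8%. The PAR basic leucine zipper letters TTACGTAA, to which Hlf binds, were in 0 of the 13 windows of these genes and in 0.119% of all. A match is a description of the letters and not of binding.

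Mecom and Prdm16, the PRDM proteins, were lower to a similar extent on their brightest probe sets. Mecom, also known as Evi1, read 817 on the array labelled knockout and 1261 in wild type on 1438325_at, a log2 ratio of -0.63. Its other probe sets stayed under the floor throughout, 1422295_at at 21.4 on the array labelled knockout and 25.1 in wild type, and 1423011_at at 9.6 on the array labelled knockout and 14.0 in wild type. The Mecom value therefore rests on 1 measured probe set. Prdm16 read 154 on the array labelled knockout and 243 in wild type on 1440870_at (log2 -0.65). Its probe set 1440745_at read 70.8 on the array labelled knockout and 107 in wild type (log2 -0.60), near the floor. On 1429308_at it read 58.7 on the array labelled knockout, under the floor, against 102 in wild type, a difference of at least 1.68-fold. The fourth, 1429309_at, went the other way, with 79.6 on the array labelled knockout and 73.8 in wild type (log2 0.11). Thus 3 of 4 Prdm16 probe sets were lower and 1 was not. Both genes lie just past 1.5-fold, and of probe sets of similar brightness 1.07% were as low as 1438325_at and 3.71% as low as 1440870_at.

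The upstream start windows of these related genes are shown because they share a stretch, in capitals, of 24 bases. Mecom lies at chr3:30509710-30510009 and Prdm16 at chr4:154636824-154637123, both on the minus strand.
Mecom: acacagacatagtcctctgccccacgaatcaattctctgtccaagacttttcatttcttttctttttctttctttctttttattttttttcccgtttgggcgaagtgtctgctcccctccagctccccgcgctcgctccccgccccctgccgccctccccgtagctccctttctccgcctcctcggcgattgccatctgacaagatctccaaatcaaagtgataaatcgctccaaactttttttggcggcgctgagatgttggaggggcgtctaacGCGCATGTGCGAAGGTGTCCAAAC
Prdm16: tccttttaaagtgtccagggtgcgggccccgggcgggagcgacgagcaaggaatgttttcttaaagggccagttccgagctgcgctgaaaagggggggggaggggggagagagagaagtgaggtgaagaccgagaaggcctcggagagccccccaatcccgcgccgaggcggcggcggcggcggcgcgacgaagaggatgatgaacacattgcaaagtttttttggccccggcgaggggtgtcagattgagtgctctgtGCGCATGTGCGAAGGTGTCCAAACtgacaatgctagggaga
The stretch GCGCATGTGCGAAGGTGTCCAAAC covers positions 27 to 50 in Mecom, where the window ends, and 10 to 33 in Prdm16. It was present in 2 of the 32851 windows, those of Mecom and Prdm16. Over the 73 pairs of windows from different genes of the group, the next longest shared stretch had 12 bases and the median of the others was 8. It contains the E-box letters CATGTG. The second Mecom start, from which the shorter Evi1 form without the PR domain is made, has no such stretch in its window. The start that the measured Mecom probe set follows is unknown here.

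Meis1, which binds DNA with Hox and Pbx proteins, gave 3 different answers. Its brightest probe set, 1450992_a_at, read 1333 on the array labelled knockout and 1795 in wild type (log2 -0.43), short of 1.5-fold. Probe set 1443260_at read 563 on the array labelled knockout and 941 in wild type (log2 -0.74), which is past that size. The dimmest, 1459423_at, read 115 on the array labelled knockout and 87.6 in wild type (log2 0.40). Both bright probe sets thus had ratios below 0, with 1 of them past 1.5-fold, and the one nearest the floor had a ratio above 0 that was short of that size. Of probe sets as bright as the first and the second, 1.36% and 0.967% were as low. Of the 4629 as bright as 1459423_at, 91.9% had a ratio as low or lower.

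Runx1, the DNA-binding subunit of core binding factor, was lower on 1 probe set only. Probe set 1422864_at read 414 on the array labelled knockout and 756 in wild type (log2 -0.87). By contrast 1440878_at, of similar brightness, read 483 on the array labelled knockout and 465 in wild type (log2 0.05). Probe set 1422865_at read 163 on the array labelled knockout and 172 in wild type (log2 -0.07). For 1427650_a_at the values were 157 on the array labelled knockout and 129 in wild type (log2 0.28), and for 1452531_at 101 on the array labelled knockout and 114 in wild type (log2 -0.16). None of these 4 reached 1.5-fold, and their signs differed. The sixth, 1452530_a_at, stayed under the floor, at 21.8 on the array labelled knockout and 28.1 in wild type. The median over the 5 measured Runx1 probe sets was -0.07, so Runx1 counted as lower only when its brightest probe set stood for it. Probe set 1422864_at and 1422865_at were designed on the same target record, and still differed by 0.80 on the log2 scale.

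**Figure D2:**
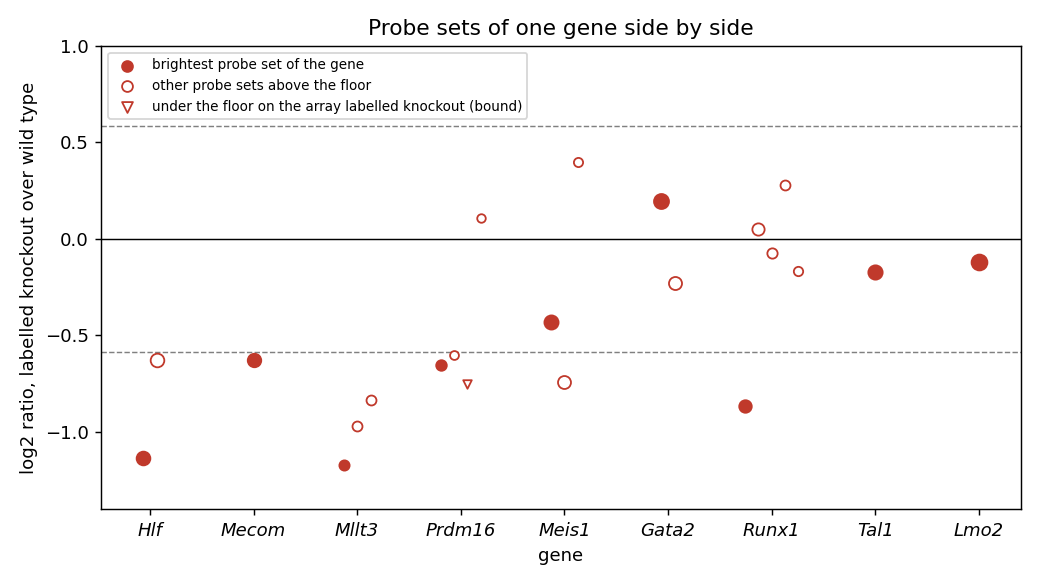
Log2 ratio of the array labelled knockout over wild type (vertical) for the 22 measured probe sets, by gene. Filled points are the brightest probe set of a gene, open points the others, symbol area grows with mean signal, the triangle is a bound, and dashed lines mark 1.5-fold; Mllt3 spans -1.17 to -0.84, whereas Runx1 spans -0.87 to 0.28.

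Runx1 is transcribed from a distal and a proximal start, and both windows are shown because its probe sets disagreed. The distal one is chr16:92826025-92826324 and the proximal one chr16:92697280-92697579, both on the minus strand, with the GATA, E-box and Runx letters in capitals as above.
Runx1 distal: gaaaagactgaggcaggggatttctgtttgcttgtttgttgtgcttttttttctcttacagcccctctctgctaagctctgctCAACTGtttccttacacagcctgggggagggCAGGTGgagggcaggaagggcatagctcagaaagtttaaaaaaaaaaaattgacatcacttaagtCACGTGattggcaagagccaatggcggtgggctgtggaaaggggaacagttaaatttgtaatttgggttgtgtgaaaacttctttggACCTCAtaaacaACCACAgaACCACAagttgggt
Runx1 proximal: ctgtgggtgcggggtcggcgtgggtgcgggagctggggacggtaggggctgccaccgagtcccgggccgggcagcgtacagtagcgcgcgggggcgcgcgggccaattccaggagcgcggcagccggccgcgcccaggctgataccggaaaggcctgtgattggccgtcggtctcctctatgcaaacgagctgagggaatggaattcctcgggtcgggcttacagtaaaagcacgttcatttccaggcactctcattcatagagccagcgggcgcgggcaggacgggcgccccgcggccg
The distal window held 3 matches to the Runx letters, all after the start at 17 to 22, 29 to 34 and 37 to 42, and 3 E-boxes before it. The proximal window held none of these letters and had 69% G and C bases, against 45% in the distal one. Over all 13 windows of the group, 4 held the Runx letters, 9 an E-box and 4 the GATA letters. Of all 32851 windows, 45.8% held the Runx letters, 72.3% an E-box and 29.8% the GATA letters, so these counts do not set the group apart. The start that each Runx1 probe set follows is unknown here, so the values were not assigned to a start.

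The remaining factors differed little. Gata2, a zinc finger factor of stem and progenitor cells, read 2964 on the array labelled knockout and 2588 in wild type on 1450333_a_at (log2 0.20). Its second probe set, 1428816_a_at, read 700 on the array labelled knockout and 821 in wild type (log2 -0.23), so the signs were opposite and both sizes small. Tal1, the basic helix-loop-helix factor also called Scl, read 1620 on the array labelled knockout and 1821 in wild type on its single probe set (log2 -0.17). Lmo2, the LIM domain adaptor, read 4927 on the array labelled knockout and 5352 in wild type on its single probe set (log2 -0.12). The largest difference over the 4 probe sets of these genes was 1.17-fold, in Gata2. Of the 205 probe sets as bright as that of Lmo2, 7.32% had a ratio as low, and 8.94% of 1487 as bright as that of Tal1.

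**Figure D3:**
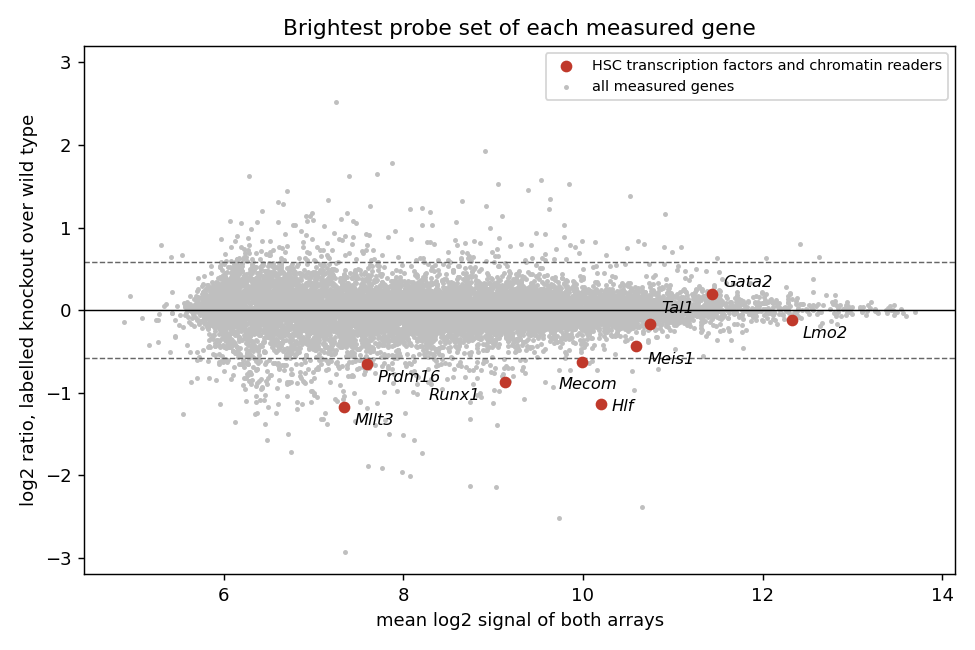
Log2 ratio of the array labelled knockout over wild type (vertical) against mean log2 signal (horizontal) for the brightest probe set of all 11547 measured genes (grey) and of the 9 HSC regulators (red), with dashed lines at 1.5-fold. Hlf, Mllt3, Runx1, Prdm16 and Mecom lie under the lower line, and Meis1, Tal1, Lmo2 and Gata2 lie between the lines.

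By the spread of their log2 ratios, probe sets of these genes agreed less well than those of most genes. Of the 6 genes with more than 1 measured probe set, Hlf and Mllt3 had all of them negative, and Prdm16, Meis1, Gata2 and Runx1 had ratios of both signs. Over the 18 probe sets of these 6 genes that passed the floor on both arrays, the pooled SD of the log2 ratio within a gene was 0.42. Over 12188 such probe sets of 4632 genes it was 0.22. This SD holds no error between animals. Mixed signs were common among all genes, so the signs alone do not show poorer agreement. Ratios all had the same sign in 62.0% of the 2790 genes with 2 such probe sets. The share was 43.1% of the 1145 genes with 3, 27.4% of the 157 with 5 and 52.4% of all 4632. The span of ratios within Meis1, 1.14, was exceeded by 1.48% of the 1145 genes with 3 such probe sets, and that within Prdm16, 0.76, by 7.34%. Runx1 spanned 1.15, exceeded by 5.1% of the 157 genes with 5 such probe sets. Hlf spanned 0.51, exceeded by 6.92% of 2790 genes with 2, and Gata2 0.43, exceeded by 11.1%. Mllt3, at 0.33, was exceeded by 38.9% of genes with 3 and lay in the ordinary range.

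Where 2 measured probe sets shared a target record they still differed. The difference was 0.51 for Hlf, 0.86 for Prdm16 (1429308_at, with 1 value raised to the floor, and 1429309_at) and 0.80 for Runx1, all on the log2 scale. Over 2803 such pairs of all genes, both above the floor, the median difference was 0.14 and the 90th percentile 0.45. When a gene was counted as lower only if every measured probe set was at least 1.5-fold lower, a count added after the data were seen, 3 of the 9 genes remained (Hlf, Mllt3 and Mecom, the last with 1 measured probe set), against 1.99% of 11554 genes.

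**Figure D4:**
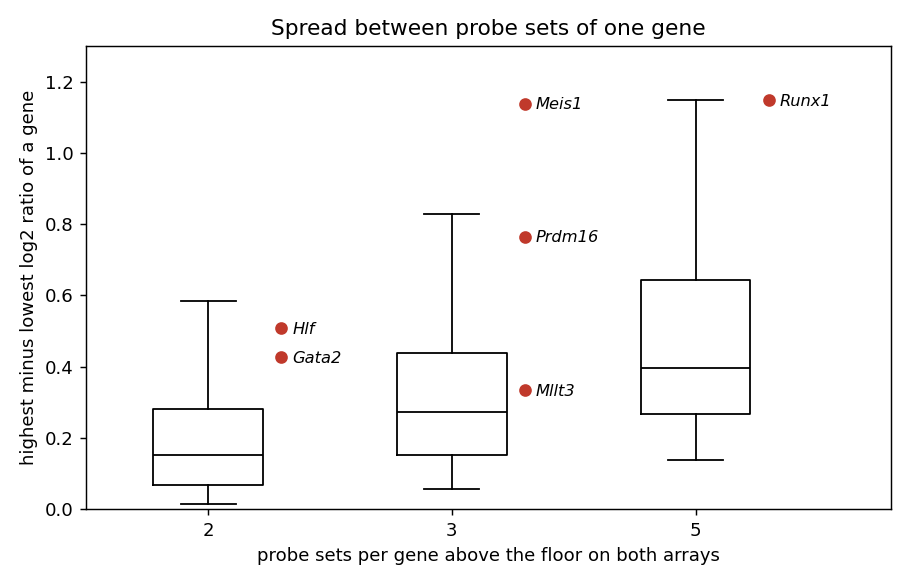
Highest minus lowest log2 ratio among the probe sets of a gene that pass the floor on both arrays (vertical), by number of such probe sets (horizontal). Boxes show the median and quartiles over all genes and whiskers percentiles 5 and 95; the red points for Hlf, Gata2, Prdm16, Meis1 and Runx1 lie above the boxes and Mllt3 lies inside its box.

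Partners and relatives of the 9 genes were described from 9 fixed lists, of which 79 different genes were analysed here and 71 were measured. Of the 71, 4 were at least 1.5-fold lower, 1 was higher and 66 lay between, with a median log2 ratio of -0.03. The shares of all measured genes past this size, given above, were 2.63% lower and 1.71% higher. Among the lower ones, the homeobox gene Hoxa10 read 85.6 on the array labelled knockout and 185 in wild type (log2 -1.12). Egr1, an immediate early factor linked to HSC quiescence, read 887 on the array labelled knockout and 1464 in wild type (log2 -0.72). The Smad corepressor Ski read 311 on the array labelled knockout and 494 in wild type (log2 -0.67), and Gata3 143 on the array labelled knockout and 219 in wild type (log2 -0.62). Lmo4, a LIM domain relative of Lmo2, was the higher one, with 536 on the array labelled knockout and 340 in wild type (log2 0.66). A second measured probe set of Ski gave -0.09.

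The other heptad factors did not pass 1.5-fold. Erg had a log2 ratio of -0.32, Lyl1 of -0.04 and Fli1 of 0.0034. In the Tal1 and Lmo2 complex, 11 of 12 measured genes lay between, with Ssbp3, which stabilises Ldb1, at -0.54 (its other measured probe set at -0.08) and Gata1 at 0.28. Core binding factor beta, the obligate partner of Runx1, read 3559 on the array labelled knockout and 3522 in wild type (log2 0.02), and Runx3 had a log2 ratio of 0.04. Spi1, which antagonises Gata factors in myeloid cells, had a ratio of 0.34.

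Among Meis1 partners, Hoxa10 was the 1 lower gene of 6 measured, with Hoxa9 at -0.23 (its other measured probe set at -0.52) and Pbx4 at 0.18. For Mllt3, 0 of 16 measured genes of the super elongation and Dot1l complexes passed 1.5-fold in either direction by their brightest probe set, led by Ell2 (-0.37), Mllt6 (-0.31) and Psip1 (-0.30). A dimmer measured probe set was past 1.5-fold toward lower signal for Aff3 (-1.35, against -0.02 at its brightest) and for Mllt10 (-0.72, against -0.10 at its brightest), and another probe set of Mllt6 gave 0.11. The Hlf relatives Dbp (-0.39) and Tef (-0.03) and the repressor Nfil3 (0.06), which bind similar DNA letters, also lay between. In the PRDM list, Ski was the 1 lower gene of 11, with the histone methyltransferase Ehmt2 at 0.25 and Skil at -0.21. Among 16 other stem and progenitor factors Egr1 was the 1 lower gene, followed by Tcf15 (-0.55) and Zfp521 (-0.36, with another probe set at 0.19).

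**Figure D5:**
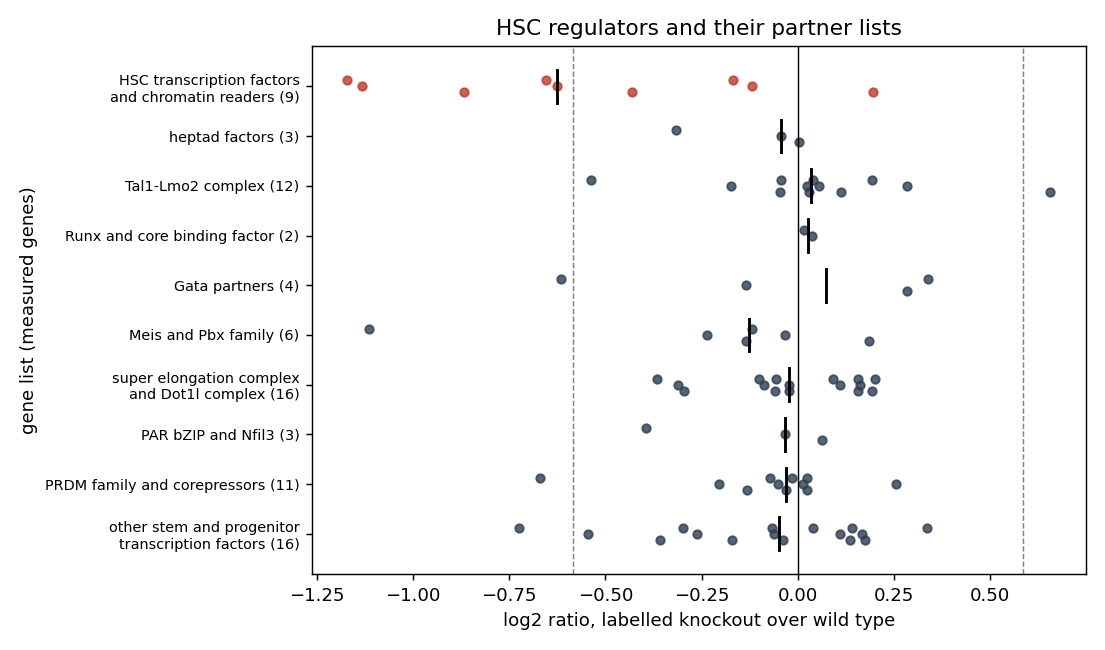
Log2 ratio of the array labelled knockout over wild type (horizontal) for the 9 HSC regulators (red, top row) and the measured genes of each partner list (dark points), with the list median as a black bar and 1.5-fold as dashed lines. The number of measured genes is in brackets; the median of the 9 regulators is -0.63 and those of the partner lists run from -0.13 to 0.07.

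Markers of other cell types differed between the same arrays. Of 12 granulocyte markers, all measured, 10 passed 1.5-fold toward higher signal and 0 toward lower. The signals of the 12 summed to 37246 on the array labelled knockout and 23234 in wild type. Of 5 measured B cell markers 2 were higher, with sums over the 6 genes on the table of 1203 on the array labelled knockout and 605 in wild type. Of 4 measured endothelial and stromal markers 2 were lower and 1 higher, with sums over 8 genes of 534 on the array labelled knockout and 971 in wild type, while Cdh5, Lepr, Col1a1 and Col3a1 stayed under the floor. Most of that difference was the chemokine gene Cxcl12, which read 57.4 on the array labelled knockout, under the floor, and 461 in wild type. The other 7 genes summed to 476 on the array labelled knockout and 509.6 in wild type. The erythroid list had 1 lower and 1 higher gene of 6 measured, and the megakaryocyte list 2 lower and 1 higher of 4. Of 5 T cell markers 1 was measured, Cd8a, at 94.4 on the array labelled knockout and 81.2 in wild type (log2 0.22). The others, Cd3d, Cd3e, Cd3g and Cd4, stayed under the floor on both arrays. The HSC and progenitor surface list held both directions, with 4 of 11 measured genes lower (Fgd5, Procr, Esam and Tek), 1 higher (Itga2b) and sums of 12089 on the array labelled knockout and 11381 in wild type. Cd48, which is used with Slamf1 to sort HSC in common schemes, read 2515 on the array labelled knockout and 1790.1 in wild type (log2 0.49), short of 1.5-fold. Without Cd48 the other 10 genes summed to 9574 on the array labelled knockout and 9590.4 in wild type. Kit had log2 ratios of 0.03 and 0.24 in its 2 measured probe sets, Slamf1 of -0.10, Cd34 of 0.15 and Flt3 of 0.19. The part of these markers in the values of Hlf, Mllt3 and the other regulators was not tested.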

How the data were processed

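The authors deposited a linear signal intensity for each probe set and array. MAS5 is named per the submitters' processing notes; it summarises and scales each array separately. The labels give no software version, scaling target or detection call. In the platform annotation 34945 probe sets named 1 gene, 932 several and 9160 none. Symbols were matched to RefSeq (GRCm38.p6) by Entrez identifier for 34741, which changed 0. With 1 array per genotype no test was made, and the number of arrays limits the precision. Signals were turned to log2 without further scaling, with a floor at the median mean signal, and a gene was represented by its brightest probe set. The 9 genes, the lists, the sizes and the alternatives were chosen with earlier results of these data known. All 9 genes were named with every probe set, and of each partner list the 3 measured genes with the largest ratio plus every gene past 1.5-fold. Further genes named (second probe sets and cell type markers) were chosen after their values were seen. The tools were Python 3.11.15 with statsmodels 0.14.6, pandas 2.3.3, numpy 2.4.6 and matplotlib 3.10.9, and the procedure was tested on simulated data. The simulation gave every probe set the same spread at any signal and held no error between animals. It therefore checked the steps of the calculation and not the calls near the floor or between genotypes. Alternatives were quantile normalization, median centring, loess (span 0.3), a floor at percentile 25 or 75 or none, a pseudocount equal to the floor, the median over probe sets, no _x_at or _s_at probe sets and a size of 2-fold.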

Additional observations from a re-analysis of the deposited data

How the results depend on the processing

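No paired analysis was possible because each genotype had 1 array. The count of 5 lower genes was within 1.5 times under quantile normalization, median centring, loess, the floor at percentile 25, no floor, a pseudocount, the median over probe sets and without _x_at and _s_at probe sets. It was 3 with the floor at percentile 75 and 2 at a size of 2-fold. When every measured probe set had to pass, a count added after the data were seen, it was 3. The share of all measured genes that were lower fell as well, from 2.63% under the processing used above. It was 1.29% with the floor at percentile 75, 0.572% at 2-fold and 1.99% when every measured probe set had to pass. The lower probe sets, 11, became 5 with the floor at percentile 75 and 2 at a size of 2-fold. The share over all measured probe sets with 1 gene name, 3.55% under the processing used above, was not counted for these alternatives. With the floor at percentile 75 the median of the 9 genes was -0.17, since the wild-type signals of Mllt3 and Prdm16 lay just above that floor and their ratios became bounds of -0.02 each. The 4 lower partner genes became 2 with that floor, 2 with a pseudocount and 1 at 2-fold. With a pseudocount 1.39% of all measured genes were lower. The 1 higher partner gene became 2 with no floor, 0 with a pseudocount and 0 at 2-fold. Over all measured genes, 198 of 11547 were higher under the processing used above. The count was 986 of 18193 with no floor, 113 of 11547 with a pseudocount and 46 of 11547 at 2-fold. Hlf and Mecom stayed past 1.5-fold in 10 of 10 alternatives at that size, Mllt3 in 9, Runx1 in 8 and Prdm16 in 7. For Mecom, at 1.54-fold, most of these alternatives could not change the value. Its 1 measured probe set lies above every floor, so other floors and other choices of probe set left its ratio at -0.63. Runx1 was -0.07 as a median over probe sets. In all, 67 of 79 summary values under the alternatives were unchanged, within 1.5 times or within the SD between probe sets of 0.22. They include the counts of higher member genes and higher member probe sets, which were 0 in every setting. The tally is therefore no measure of how stable the other values are. Signals near the floor limit Mllt3 and Prdm16, and no replicate array gives an error for any gene.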
